A study of Mus musculus with 14 samples.

Results

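Neutrophil granule protein genes were followed in lung RNA from tumour-bearing and control BALB/c mice. They comprised 10 genes, each measured by the single probe set that carries its symbol in the platform annotation, among 18193 genes named in this way. The azurophil group held Mpo, Elane, Prtn3 and Ctsg, and the group of specific granule and later products held Ngp, Camp, Ltf, Lcn2, Olfm4 and Pglyrp1. Lungs came from mice carrying 4T1 mouse breast carcinoma cells in the fourth mammary fat pad (4 arrays), from mice carrying 67NR cells there (5 arrays) and from control mice given PBS without cells (5 arrays, called normal lung). The labels call 4T1 metastatic and 67NR nonmetastatic, and each class is a single cell line. Tumour-bearing mice were killed 6 days after inoculation or once tumours were near 50 mm3, and the blood was flushed from the lung vessels with PBS. Age and sex are not given in the labels. The labels do not say whether each array is a mouse of its own. The p-values therefore rest on the spread among these arrays, which may be technical.

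Neutrophils fill their granules in the order in which the proteins are made. Azurophil granules, with myeloperoxidase and the serine proteases, are made at the promyelocyte stage in the bone marrow. Specific granules follow at the myelocyte and metamyelocyte stages, and gelatinase granules come after them. Messenger RNA for azurophil proteins is largely lost as the cells mature, although the proteins stay in the granules, so transcripts of the different groups mark different stages of the lineage. Ltf and Lcn2 of the later group are also known from secretory epithelium.

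Intensities had medians of 113.2 to 116.1 on all 14 arrays and lower quartiles of 32.0 to 33.4, so the arrays were on a common scale. No detection calls were used, and a value below the lower quartile is given here as a dim one. The alveolar and airway markers that define lung were bright in every group, with summed intensities of 8 markers from 55747 to 67493 in 4T1, 57194 to 68720 in 67NR and 57346 to 69074 in normal lungs. Neutrophil markers other than these 10 genes (S100a8, S100a9, Cxcr2, Csf3r, Mmp8 and Mmp9) summed to 21365 to 27978 in 4T1 lungs, 5154 to 8423 in 67NR lungs and 3683 to 6698 in normal lungs. S100a8 and S100a9 made up most of these sums, averaging 11274 and 11054 in 4T1 and 2219 and 2007 in normal lungs. Mmp8 and Mmp9 averaged 352 and 739 in 4T1 and 127 and 287 in normal lungs. In whole lung, more neutrophils and more RNA per neutrophil cannot be told apart, and this holds for every gene below.

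The promoters of 6 of the genes are shown because 4 of them were high in 4T1 lungs, while Prtn3 and Elane are neighbours on chromosome 10 whose values differed. Each sequence is the 250 bases before the annotated RefSeq start in GRCm38.p6, a C57BL/6J build, on the strand of the gene. Capitals mark matches, on both strands, to the C/EBP letters TTNNGNAA, to the PU.1 letters GAGGAA and to the RUNX letters TGTGGT, which are motifs of transcription factor families known from granulocyte development.
Ngp, chr9:110419558-110419807, plus strand: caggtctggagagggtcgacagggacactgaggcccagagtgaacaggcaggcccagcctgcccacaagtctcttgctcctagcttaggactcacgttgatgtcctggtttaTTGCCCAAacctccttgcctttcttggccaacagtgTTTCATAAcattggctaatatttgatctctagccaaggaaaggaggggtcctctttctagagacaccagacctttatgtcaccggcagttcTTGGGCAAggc
Camp, chr9:109849457-109849706, minus strand: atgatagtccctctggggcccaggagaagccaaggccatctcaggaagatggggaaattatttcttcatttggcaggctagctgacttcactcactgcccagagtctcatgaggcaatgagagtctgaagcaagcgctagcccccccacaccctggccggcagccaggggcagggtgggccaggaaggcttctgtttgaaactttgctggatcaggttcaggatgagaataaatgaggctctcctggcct
Olfm4, chr14:80000052-80000301, plus strand: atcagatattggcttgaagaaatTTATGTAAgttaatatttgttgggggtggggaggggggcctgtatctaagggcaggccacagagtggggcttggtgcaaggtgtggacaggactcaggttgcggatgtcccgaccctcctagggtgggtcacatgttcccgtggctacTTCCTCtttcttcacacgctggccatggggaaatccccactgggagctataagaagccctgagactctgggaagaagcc
Pglyrp1, chr7:18884440-18884689, plus strand: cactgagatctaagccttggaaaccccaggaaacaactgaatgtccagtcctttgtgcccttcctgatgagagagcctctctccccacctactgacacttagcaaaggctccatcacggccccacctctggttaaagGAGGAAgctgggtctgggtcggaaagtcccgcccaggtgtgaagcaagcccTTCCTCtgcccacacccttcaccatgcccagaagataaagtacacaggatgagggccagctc
Prtn3, chr10:79879417-79879666, plus strand: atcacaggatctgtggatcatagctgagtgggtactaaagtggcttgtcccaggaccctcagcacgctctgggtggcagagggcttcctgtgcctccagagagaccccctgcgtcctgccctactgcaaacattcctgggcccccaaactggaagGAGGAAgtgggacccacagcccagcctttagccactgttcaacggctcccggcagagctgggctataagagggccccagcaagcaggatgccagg
Elane, chr10:79886062-79886311, plus strand: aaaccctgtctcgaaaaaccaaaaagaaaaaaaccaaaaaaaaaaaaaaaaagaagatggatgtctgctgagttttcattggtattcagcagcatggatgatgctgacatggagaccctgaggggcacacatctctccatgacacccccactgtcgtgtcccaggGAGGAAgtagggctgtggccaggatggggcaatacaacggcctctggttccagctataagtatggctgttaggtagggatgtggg

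The C/EBP letters were found in 4 of the 10 granule gene windows, those of Ngp, Ltf, Lcn2 and Olfm4, and in 36.8% of all 32851 promoter windows of this length. All 3 matches in the Ngp window were of this kind. The PU.1 letters were found in 8 of the 10 windows, including all 4 azurophil genes, and in 23.3% of all windows. Ngp and Camp were the genes without them. The RUNX letters were found in 1 granule gene window, that of Ctsg, and in 14.0% of all windows. The Camp window held none of the 3 motifs. These matches describe letters in a window and were not tested as sites.

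Of the 6 later granule genes 3 rose in 4T1 lungs, while the azurophil genes Mpo, Elane, Prtn3 and Ctsg did not pass the test. On the scale of log2(intensity + 16), with limma fitted to all 45037 probe sets and Benjamini-Hochberg adjustment over them, Ngp, Olfm4 and Pglyrp1 rose in 4T1 against normal lungs. That was 3 of 10 genes, all from the later group of 6, where 0.149% of all probe sets were called higher, and 0 were lower, where 0.0111% were. At an unadjusted p under 0.05, 6 of the 6 later and 1 of the 4 azurophil genes passed, where 5.43% of all probe sets did. All 4T1 arrays exceeded all normal arrays for 5 of the 6 later genes and 0 of the 4 azurophil genes, where 1.05% of all probe sets had no overlap in this direction and 1.27% in the other. The median log2 change was 1.71 for the later group and 0.21 for the azurophil group, against -0.0023 over all genes.

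**Figure D1:**
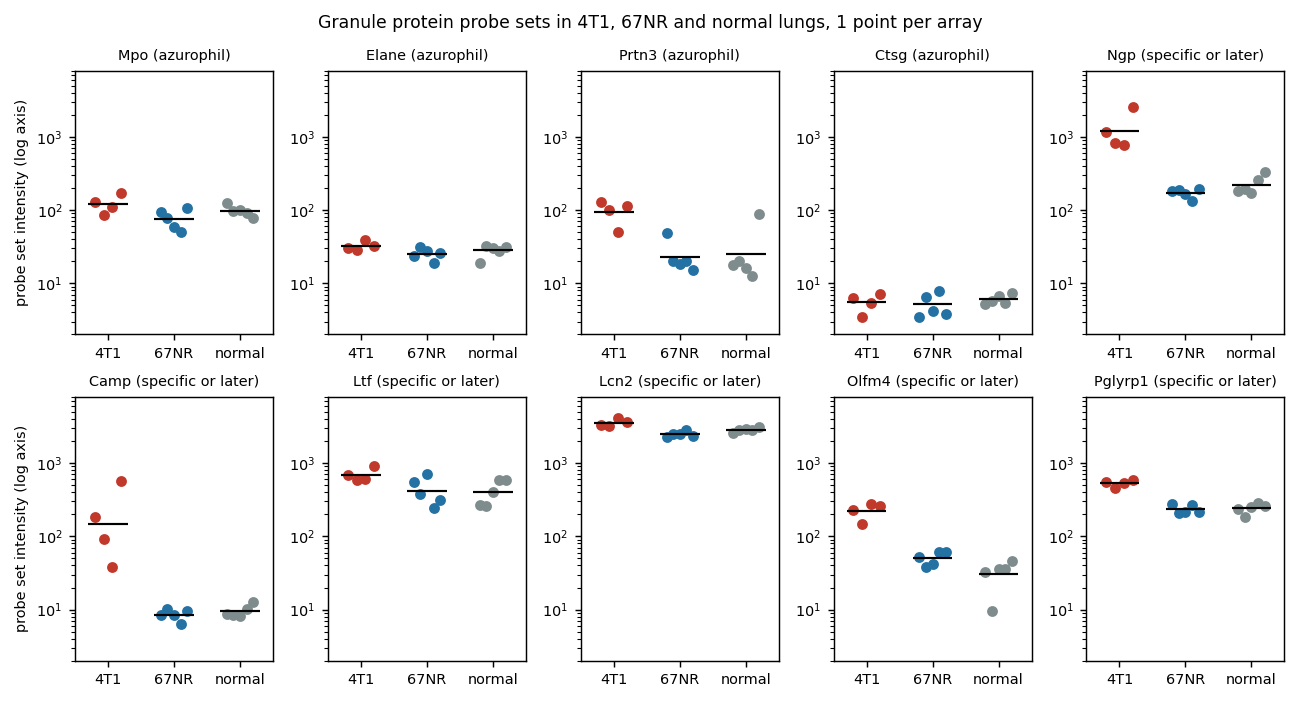
Probe set intensity (log axis) of the 10 granule protein genes in 4T1, 67NR and normal lungs, 1 point per array in replicate order, with lines at the mean of the log2 values. Ngp, Camp, Lcn2, Olfm4 and Pglyrp1 have all 4 4T1 arrays above every normal array, and Prtn3 has single high arrays in the 67NR and normal groups.

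Ngp encodes neutrophilic granule protein, a cathelicidin-related protein of specific granules. Its intensity was 1178, 831.1, 772.3 and 2575 in 4T1 lungs, 181.5, 187.6, 165.1, 134.4 and 193.8 in 67NR lungs and 181.7, 191.5, 171.1, 261.0 and 334.8 in normal lungs. The lowest 4T1 array was above the highest array of both other groups, and 4T1 replicate 4 stood apart at the top. Ngp rose 5.06-fold in 4T1 against normal lung (log2 change 2.34, SE 0.30, limma adjusted p = 0.00509). When the fit held only these groups the call was lost (adjusted p = 0.0916).

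Olfm4, olfactomedin 4, is a glycoprotein found in the specific granules of a subset of neutrophils. Its intensity was 230.6, 148.1, 272.6 and 257.2 in 4T1 lungs, 52.5, 37.7, 41.9, 61.8 and 61.4 in 67NR lungs and 32.7, 9.57, 35.8, 36.2 and 46.1 in normal lungs. The 4T1 arrays did not overlap the others, and the gene was dim in normal lung, where 2 of 5 arrays were below the lower quartile. Olfm4 rose 5.15-fold in 4T1 against normal lung (log2 change 2.36, SE 0.24, limma adjusted p = 0.000744).

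Pglyrp1 encodes a peptidoglycan recognition protein that is stored in granules and kills bacteria. It was measured at 543.9, 458.8, 527.8 and 589.3 in 4T1 lungs, 272.9, 207.8, 216.4, 268.4 and 214.2 in 67NR lungs and 239.7, 182.0, 249.9, 285.7 and 263.1 in normal lungs. Spread within each group was small beside the gap between the 4T1 arrays and the rest. Pglyrp1 rose 2.11-fold in 4T1 against normal lung (log2 change 1.08, SE 0.12, limma adjusted p = 0.00177).

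Camp encodes the precursor of the cathelicidin antimicrobial peptide. Its intensity was 184.2, 93.1, 38.7 and 571.7 in 4T1 lungs, 8.31, 10.03, 8.47, 6.44 and 9.53 in 67NR lungs and 8.67, 8.55, 8.15, 10.3 and 12.6 in normal lungs. Every 67NR and normal array was below the lower quartile, and the 4T1 arrays, all above it, differed among themselves by 14.8-fold. The log2 change against normal lung was 2.67 (SE 0.48, 95% interval 1.63 to 3.70), and it did not pass in limma (adjusted p = 0.0571). Of 14 fits with 1 array left out it passed in 2. These were without 4T1 replicate 3, the lowest 4T1 array (log2 change 3.19, adjusted p = 0.00456), and without 4T1 replicate 4, the highest (2.05, adjusted p = 0.0179). In the other left-out fits it did not pass (limma adjusted p at most 0.213). Of all 25 alternatives, 19 left it uncalled (adjusted p at most 0.329). With an offset of 1 in place of 16, which compresses dim values less, the log2 change was 3.74 and passed (adjusted p = 0.0169), and with an offset of 64 it was 1.61 and did not (adjusted p = 0.228), so the size of the change depends on the offset.

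**Figure D2:**
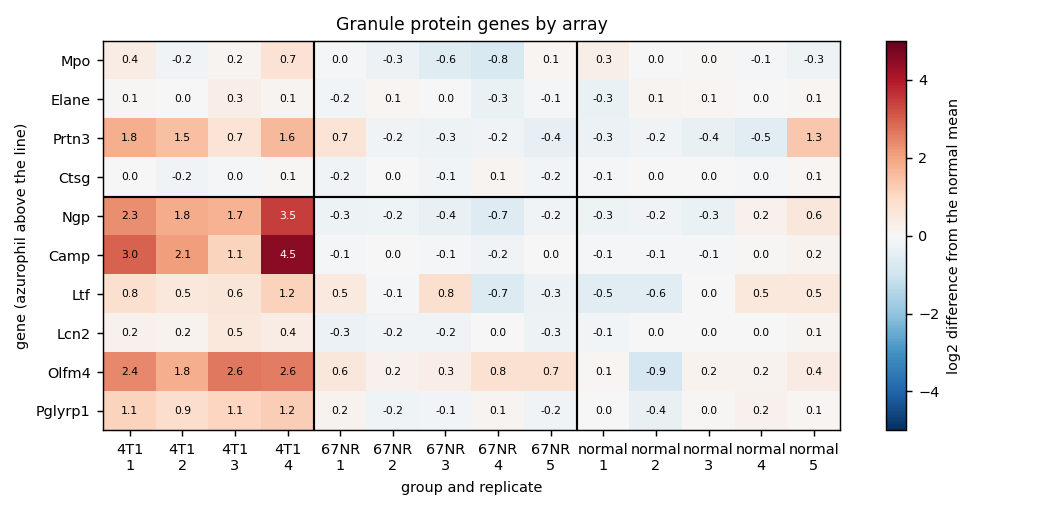
Difference of each array from the mean of the normal arrays, in log2 units, for the 10 granule protein genes (rows, azurophil above the line) in 4T1, 67NR and normal lungs (columns, by replicate). Camp and Ngp are highest in 4T1 replicate 4, at 4.52 and 3.45, whereas Olfm4 and Pglyrp1 are similar across 4T1 arrays.

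The 4T1 arrays were not ordered alike for all later genes. Replicate 4 was the highest 4T1 array for 6 of the 10 genes, among them Ngp, Camp, Ltf and Pglyrp1, and replicate 2 was the lowest for 7. Replicate 3 was the lowest for Camp and Ngp and the highest for Olfm4 and Lcn2. The calprotectin subunit S100a8, a neutrophil marker outside the granule genes, was nearly level across the same arrays at 11774, 9333, 11659 and 12329. Other neutrophil genes were less level. Stfa2l1 was 3200, 1421, 1423 and 2713, and Mmp8 was 340, 286, 355 and 427. The differences that follow therefore hold for S100a8 only. Relative to normal lung, the log2 change of Camp minus that of S100a8 was 0.52, -0.019, -1.34 and 2.01 in 4T1 replicates 1 to 4, and for Ngp it was -0.11, -0.27, -0.70 and 0.94. With 4 arrays these differences are given as values and were not tested.

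For the remaining later genes, Lcn2 and Ltf, no change against normal lung was called. Lcn2, which binds bacterial siderophores, had intensities of 3288, 3198, 4131 and 3650 in 4T1 lungs, 2303, 2507, 2533, 2849 and 2373 in 67NR lungs and 2583, 2799, 2881, 2819 and 3108 in normal lungs. The 4T1 arrays were above all others, but the log2 change against normal lung was 0.32 (95% interval 0.14 to 0.51) and did not pass in limma (adjusted p = 0.428).

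Ltf encodes lactoferrin, an iron-binding protein of specific granules and of airway secretions. It was measured at 697.4, 585.4, 612.9 and 900.4 in 4T1 lungs, 556.3, 381.0, 711.8, 242.2 and 317.3 in 67NR lungs and 267.2, 263.4, 407.3, 578.4 and 586.6 in normal lungs. The groups overlapped, since 67NR replicate 3 and normal replicate 5 lay within the range of 4T1 lungs. The log2 change in 4T1 against normal lung was 0.77 (SE 0.32, 95% interval 0.08 to 1.46, limma adjusted p = 0.862).

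The spread of Ltf within the 67NR and normal groups ran beside that of Bpifa1, a secreted protein of the upper airway epithelium, which was picked out after its values were seen. Bpifa1 was at 4465, 4759, 5685 and 3999 in 4T1 lungs, 4501, 1489, 4935, 1027 and 943 in 67NR lungs and 748, 1156, 4564, 4423 and 4617 in normal lungs. The 9 arrays with Bpifa1 at 3999 or above included all 4T1 arrays, 2 67NR arrays and 3 normal arrays, and had Ltf at 407.3 to 900.4. The other 5 arrays, 3 67NR and 2 normal ones, had Ltf at 242.2 to 381.0. How many of all probe sets separate between these sides was not counted. Among the arrays with high Bpifa1, Ltf was 585.4 to 900.4 in 4T1, 556.3 and 711.8 in 67NR and 407.3 to 586.6 in normal lungs. Of 7 airway secretory markers 0 passed in 4T1 against normal lung in limma (0 at an unadjusted p under 0.05, where 5.43% of all probe sets did). Their median log2 change was 0.20 and their summed intensity was 31577 to 34090 in 4T1, 24006 to 33251 in 67NR and 29250 to 34683 in normal lungs. In 67NR lungs Scgb3a1 ranged from 1251 to 3383, Bpifb1 from 179 to 474 and Reg3g from 15.8 to 242. Scgb1a1 (11531 to 15492), Scgb3a2 (9621 to 12048) and Muc5b (166 to 236) ranged less there, so the airway markers did not all spread as Bpifa1 did. The part of these markers in the Ltf values was not tested.

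**Figure D3:**
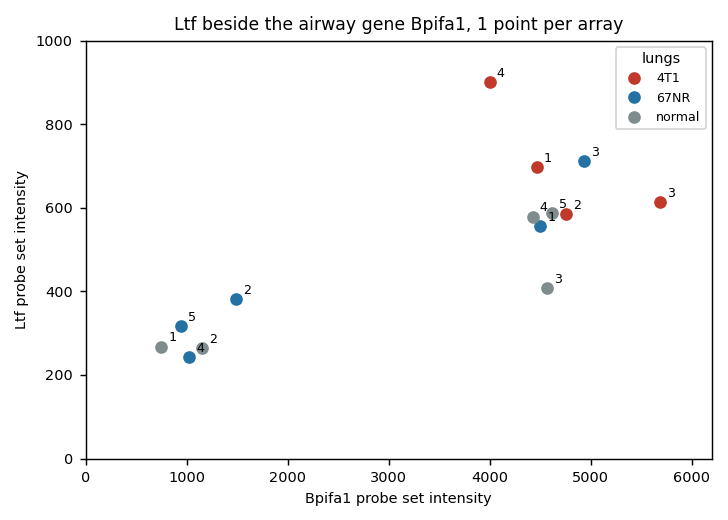
Ltf intensity against Bpifa1 intensity, 1 point per array, numbered by replicate, for 4T1, 67NR and normal lungs. The points fall into 9 arrays with Bpifa1 at 3999 or above and Ltf from 407.3 to 900.4, and 5 arrays with Bpifa1 up to 1489 and Ltf up to 381.0.

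Lcn2 and Olfm4 were set against the same division of the arrays. In the 67NR group Lcn2 was 2303 and 2533 in the arrays with high Bpifa1 and 2373 to 2849 in the others. Olfm4 was 41.9 and 52.5 in those 67NR arrays and 37.7 to 61.8 in the other 3. Both genes thus overlapped between the sides in 67NR lungs. In normal lungs Lcn2 was 2819 to 3108 in the 3 arrays with high Bpifa1 and 2583 and 2799 in the other pair. Olfm4 was 35.8 to 46.1 and 9.57 and 32.7, without overlap for either gene. So few arrays separate easily by chance, and the share of all probe sets that do so was not counted. Since Bpifa1 was picked after its values were seen, no link is read from this.

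Of the azurophil genes, Mpo encodes myeloperoxidase, the haem enzyme that makes hypochlorous acid. Its intensity was 130.02, 84.7, 109.6 and 172.3 in 4T1 lungs, 93.6, 76.7, 58.5, 50.6 and 105.4 in 67NR lungs and 123.0, 95.9, 99.98, 91.7 and 77.6 in normal lungs. All groups overlapped. The log2 change in 4T1 against normal lung was 0.28 (95% interval -0.16 to 0.72, limma adjusted p = 0.974).

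Elane encodes neutrophil elastase and Ctsg cathepsin G, serine proteases of azurophil granules. Elane lay between 28.7 and 39.1 in 4T1, 18.6 and 31.7 in 67NR and 18.7 and 32.7 in normal lungs, and 3 of 4, 5 of 5 and 4 of 5 arrays were below the lower quartile. Ctsg lay between 3.45 and 7.25 in 4T1, 3.45 and 7.94 in 67NR and 5.20 and 7.36 in normal lungs, in the lowest 10% of every array. Whether such intensities were above background was not tested, and a change in so dim a gene may not be detectable. The log2 changes in 4T1 against normal lung were 0.13 for Elane (95% interval -0.11 to 0.38) and -0.031 for Ctsg (-0.19 to 0.13), and neither passed in limma (adjusted p = 0.985 and 0.99996).

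Prtn3, which encodes the serine protease proteinase 3, was the azurophil gene that stood apart from the other 3. Its intensity was 128.8, 100.2, 49.6 and 111.9 in 4T1 lungs, 49.2, 20.2, 18.5, 20.1 and 15.3 in 67NR lungs and 17.8, 20.4, 16.2, 12.6 and 88.1 in normal lungs. All 4T1 arrays exceeded 4 of the 5 normal arrays, but normal replicate 5 reached their range. In both 67NR and normal lungs 4 of 5 arrays were below the lower quartile. The log2 change against normal lung was 1.41 (SE 0.37, 95% interval 0.61 to 2.20) and was not called by limma (adjusted p = 0.428). Without normal replicate 5 it was 1.74 and passed (adjusted p = 0.0237), and with an offset of 64 it was 0.79 (adjusted p = 0.391). Elane follows Prtn3 on the chromosome with 0 annotated genes starting between them, and at the arrays where Prtn3 was highest, 4T1 replicates 1, 2 and 4 and normal replicate 5, Elane was 30.1, 28.7, 31.95 and 31.6.

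Normal replicate 5 was also the highest normal array for 7 of the 10 genes, among them Ngp, Camp, Ltf, Lcn2 and Olfm4. The neutrophil marker S100a8 and the neutrophil gene Stfa2l1 were highest there too. S100a8 was 2820 in that array and 2686 in the next normal array. Stfa2l1 was 172 in that array and 106 to 126 in the others. The neutrophil marker Mmp8 was instead lowest there, at 119.7 beside 119.9 to 146.6 in the other normal arrays. Whether these values bear on that of Prtn3 was not tested. Ms4a3 and Fcnb, known from immature granulocytes and picked after their values were seen, were not highest in that array. Ms4a3 was 178 there and 153 to 271 in the other normal arrays, and Fcnb was 86.8 there and 99.3 to 199 in the others.

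**Figure D4:**
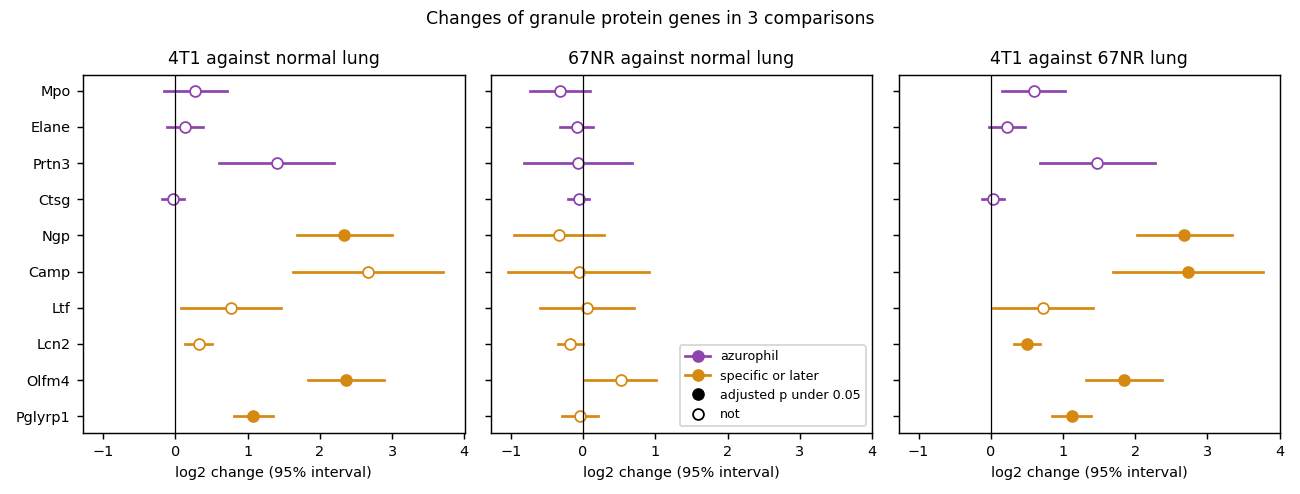
Log2 change with 95% interval (limma) of the 10 granule protein genes in 4T1 against normal, 67NR against normal and 4T1 against 67NR lung. Filled points have an adjusted p under 0.05: 3 genes in the first comparison, 0 in the second and 5 in the third, all of them later genes.

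Averaged by group of genes, each gene set relative to its mean in normal lung, the later genes stood at 1.64, 1.23, 1.28 and 2.21 in 4T1 replicates 1 to 4 on the log2 scale. The azurophil genes stood at 0.57, 0.29, 0.28 and 0.64 in the same arrays, and without Prtn3 at 0.15, -0.11, 0.15 and 0.31. In 67NR lungs the later genes stood between -0.10 and 0.10 and the azurophil genes between -0.29 and 0.07. In normal lungs the ranges were -0.34 to 0.32 and -0.16 to 0.32. The later minus the azurophil average was 0.93 to 1.57 in 4T1 lungs, 0.010 to 0.31 in 67NR lungs and -0.33 to 0.36 in normal lungs. The azurophil average rests on probe sets that were dim in most arrays for Elane and Ctsg and in 4 of 5 67NR and 4 of 5 normal arrays for Prtn3, and these averages are descriptions with no test.

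The 67NR comparison asked whether a tumour that the labels call nonmetastatic went with the same changes. None of the 10 genes passed in 67NR against normal lung in limma: 0 were called higher, where 0.00222% of all probe sets (0.0055% of genes) were, and 0 lower, where 0% were. At an unadjusted p under 0.05, 2 of the 10 passed, Olfm4 and Lcn2, where 6.23% of all probe sets did. In 0 of the 10 did the 67NR arrays lie wholly above or wholly below the normal ones, where 0.655% and 0.471% of all probe sets did. Olfm4 had the largest positive log2 change at 0.52 (95% interval 0.03 to 1.02, limma adjusted p = 0.795), and 3 of 5 67NR arrays were above every normal array. For Ngp the change was -0.34 (95% interval -0.96 to 0.28) and for Mpo -0.31 (-0.73 to 0.10). Elane, Camp, Pglyrp1, Prtn3, Ctsg and Ltf had changes between -0.089 and 0.049, with a 95% interval for Camp of -1.04 to 0.91. Lcn2 had a log2 change of -0.18 (95% interval -0.35 to -0.0032, limma adjusted p = 0.798).

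Setting 4T1 against 67NR lungs asks whether the lungs differ between the tumour lines. Ngp, Camp, Lcn2, Olfm4 and Pglyrp1 were higher in 4T1 lungs, 5 of the 10 genes and 5 of the 6 later ones, where 0.133% of all probe sets were called higher. Of the 10 genes 0 were called lower, where 0.0377% of all probe sets were. At an unadjusted p under 0.05, 8 of the 10 passed, where 8.02% of all probe sets did. All 5 called genes and Prtn3 had no overlap between 4T1 and 67NR arrays, where 1.27% of all probe sets did so in this direction and 1.56% in the other. Ngp was 6.41-fold higher (log2 change 2.68, SE 0.30, limma adjusted p = 0.00227), Olfm4 3.58-fold (1.84, SE 0.24, adjusted p = 0.00699) and Pglyrp1 2.17-fold (1.12, SE 0.12, adjusted p = 0.00180).

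The log2 change of Camp, 2.73 (SE 0.48), passed narrowly (limma adjusted p = 0.0478). It was 1.63 with an offset of 64 (adjusted p = 0.133) and 3.897 with an offset of 1 (adjusted p = 0.0128), and the call was also lost with robust variance (adjusted p = 0.0519) and in a fit of only these groups (adjusted p = 0.285). Dropping 1 array at a time ended this call in 12 of 14 cases (adjusted p at most 0.153), and it held without 4T1 replicate 3 or 4T1 replicate 4. For Lcn2 the log2 change was 0.50 (SE 0.085, limma adjusted p = 0.0381). Its call held without 4T1 replicate 2, 67NR replicate 4, normal replicate 1 or normal replicate 5, and ended in the other 10 cases (adjusted p at most 0.143), and also with quantile normalisation (0.0505), an offset of 1 (0.0584) and only these groups (0.197). Olfm4 did not pass without 67NR replicates 1 and 3 together (1.79, adjusted p = 0.0638) or with an offset of 1 (2.12, adjusted p = 0.0586). Prtn3, at 1.48, missed the threshold (95% interval 0.68 to 2.27, limma adjusted p = 0.224). It passed in 1 of 25 alternatives, without normal replicate 5 (adjusted p = 0.0447). That array is in neither group compared, so leaving it out changes only the estimate of the spread. Mpo had a change of 0.59 (0.15 to 1.03), Ltf of 0.72 (0.03 to 1.41), Elane of 0.22 (-0.021 to 0.47) and Ctsg of 0.029 (-0.13 to 0.19), and 0 of these 4 passed.

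Other genes of the granule and maturation programme give the setting of these changes. Among 15 further specific and gelatinase granule genes, 2 rose in 4T1 against normal lung, where 0.225% of genes were called higher, and 13 did not pass. These 2 were Mmp8 and Mmp9, the neutrophil collagenase and gelatinase, with log2 changes of 1.36 and 1.29. Both were also neutrophil markers in the sum above, so they are not separate from it. A dimmer Mmp9 probe set had 2.03. The list's median was 0.10, and Cd177, a surface protein of specific granules, had a change of 0.98 (adjusted p = 0.428) and the integrin gene Itgam one of 0.83 (adjusted p = 0.152). Several members of the list are also abundant in macrophages, among them Chil3 at -0.11 and Lyz1 at -0.074.

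Of 9 genes of secretory vesicles and mature neutrophils, 7 were higher in 4T1 against normal lung, where 0.225% of genes were called higher. Some of them were also markers in the sum above, and the list had a median log2 change of 1.89. The largest were the stefin Stfa2l1 at 3.85, S100a9 at 2.48, the chemokine receptor Cxcr2 at 2.41 and S100a8 at 2.38. In 4T1 against 67NR lung 7 of 9 were also higher, where 0.198% of genes were called higher and 0.0385% lower, with a median of 1.56. In 67NR against normal lung 0 of 9 passed in limma, where 0.0055% of genes were called higher, with a median of 0.23. At an unadjusted p under 0.05, 1 passed, where 6.23% of all probe sets did.

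**Figure D5:**
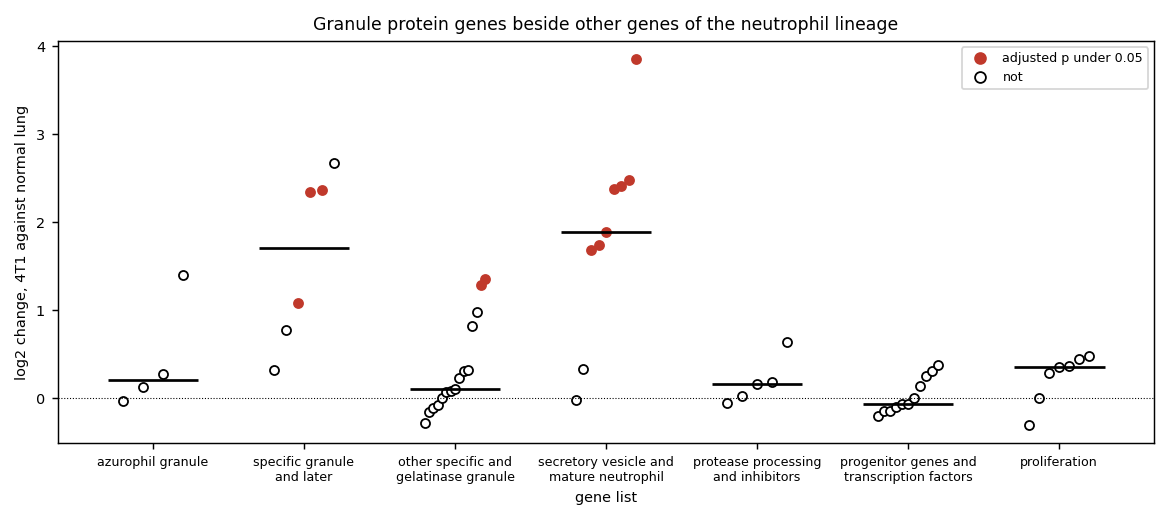
Log2 change in 4T1 against normal lung of the genes of 7 lists, 1 point per gene, with lines at list medians and filled points for an adjusted p under 0.05. The mature neutrophil list (median 1.89) and the later granule genes (1.71) lie above the azurophil genes (0.21) and the progenitor genes (-0.064).

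Neither genes of the early stages nor those of granule protease processing or lysosomes passed. Of 11 progenitor and granule transcription factor genes, limma called 0 in 4T1 against normal lung (1 at an unadjusted p under 0.05), with a median log2 change of -0.064. For this list and those below, 0.225% of all genes were called higher, and 5.43% of all probe sets passed unadjusted. The factor Spi1, which encodes PU.1, had the largest change at 0.38 (adjusted p = 0.392), and Cebpd had one of 0.32. Ms4a3, a granulocyte progenitor gene, was at 191 ± 17.7 in 4T1 lungs (SD, n = 4) and 208 ± 49.1 in normal lungs (SD, n = 5). This list could show little of early neutrophils in whole lung. Cd34, Kit and Cebpa were already bright in normal lungs, averaging 3420, 3158 and 3447. Gfi1 was near the lower quartile, at 27.7 to 34.2 in 4T1 lungs, and Cebpe had no value. A change in early neutrophils may therefore not be detectable here. Of 7 proliferation genes 0 passed (2 unadjusted), with a median of 0.35 and the largest changes in Birc5 at 0.48 (adjusted p = 0.944) and Top2a at 0.45 (adjusted p = 0.778). Of 5 genes for granule protease processing and inhibition 0 passed (2 unadjusted): Slpi, an inhibitor of neutrophil elastase, had a change of 0.64 (adjusted p = 0.0876) and Srgn, the proteoglycan that packs granule contents, one of 0.19. Of 6 further azurophil or lysosomal genes 0 passed (0 unadjusted), with changes from -0.10 in Lyz2 to 0.06 in Hexa.

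Markers of other cell types were read beside these results. Of 7 monocyte markers 0 passed in 4T1 against normal lung in limma (1 unadjusted, where 5.43% of all probe sets did). Their median log2 change was 0.22, with summed intensities of 5191 to 7103 in 4T1, 5204 to 6536 in 67NR and 4601 to 5693 in normal lungs. Of 6 eosinophil markers 0 passed (0 unadjusted), with sums of 489.8 to 604.6, 439.9 to 592.7 and 459.7 to 602.1 in 4T1, 67NR and normal lungs. Of 8 basophil and mast cell markers 1 was higher, the basophil protease Mcpt8. It rose by 2.27 in 4T1 and by 1.68 in 67NR against normal lung (limma adjusted p = 0.000126 and 0.0220). Among all genes 0.225% and 0.0055% were called higher in these comparisons. The mast cell protease Mcpt4 averaged 11.8 in 4T1, 13.5 in 67NR and 11.6 in normal lungs. Mcpt4 was below the lower quartile in every array, so a change in it may not be detectable. The brighter mast cell genes Cma1 and Cpa3 averaged 218 and 183 in 4T1, 213 and 188 in 67NR and 199 and 175 in normal lungs. Of 5 erythroid genes 0 passed (1 unadjusted), with a median of 0.76 and sums of 3550 to 5011 in 4T1, 4049 to 5987 in 67NR and 2962 to 4735 in normal lungs. Among 6 B cell, 6 alveolar macrophage, 8 heart and muscle and 4 adipose genes 0 passed, with medians of 0.041, -0.030, 0.096 and 0.12 (0, 0, 1 and 0 unadjusted). The part of any of these cells in the granule gene values was not tested.

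The genes whose array profile was most like that of each risen granule gene were found by the root mean square difference of centred log2 values over all 14 arrays, among 18183 other genes. For Ngp they were Wfdc17 (0.45), S100a8 (0.50) and Wfdc21 (0.50), where the median over all genes was 1.23. For Olfm4 they were S100a8 (0.28), S100a9 (0.29) and Cxcr2 (0.30), with a median of 1.04. For Pglyrp1 they were Ifitm1 (0.16), Pla2g7 (0.16) and Mmp8 (0.18), with a median of 0.55. Each of these genes was itself called higher in 4T1 against normal lung. Only genes risen in 4T1 lungs were searched from, over the same arrays, so this follows largely from the choice. The medians were near the spread of each granule gene about its own mean (1.22, 1.03 and 0.52). They therefore serve only as the distance to a level gene.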

How the data were processed

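Lung RNA was hybridised to Affymetrix mouse arrays, 1 for each sample. Values deposited by the authors are intensities of probe sets on a linear scale, judged from their range. Summarisation, background correction and normalisation are not given in the sources used. The number of arrays limits the precision. Names came from the platform annotation, and promoters from RefSeq tables (GRCm38.p6), in which all 10 genes matched.

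After leaving out 64 control probe sets, log2(intensity + 16) of 45037 probe sets was fitted without a level filter, since the filter on the upper 60% of mean level would have kept only 5 of the 10 granule genes. Group means were estimated in 1 model of the 14 arrays (limma 3.58.1, R 4.3.3, lmFit and eBayes at their defaults, residual df 11). Two-sided tests were adjusted by Benjamini-Hochberg over all probe sets, and 0.05 was the threshold. Fold changes are on the offset scale and understate changes of dim genes. Gene lists used the brightest probe set per gene. The steps were tested on simulated data.

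The genes and lists were chosen with earlier results of these data known. All 10 genes are described whatever their result. In each other list up to 4 called genes are named, or else up to 2 with the largest change. Some genes picked after their values were seen are also named. They are the airway markers including Bpifa1, and Fcnb, Ms4a3, Mcpt4, Cma1, Cpa3, Cd177, Itgam, Chil3, Lyz1, Cebpa, Cd34, Kit and Gfi1. Alternatives covered normalisation, offset, filters, variance models, the groups in the fit, each array left out, and a replicate block.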

Additional observations from a re-analysis of the deposited data

Results flagged for a closer look

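In 3 of 30 groups of arrays, formed by 10 genes in 3 groups, 1 array lay far from the others of its group by Dixon's criterion, which chance meets in about 1 of 20 groups. Prtn3 was high in 67NR replicate 1, at 49.2 beside 15.3 to 20.2 in the other 67NR arrays, a gap of 0.80 of the group's log2 range. Prtn3 was also high in normal replicate 5, at 88.1 beside 12.6 to 20.4 (0.81 of the range). Olfm4 was low in normal replicate 2, at 9.57 beside 32.7 to 46.1 (0.73 of the range).

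For 5 genes the change from normal lung differed between the tumour lines, as tested by the direct contrast of 4T1 with 67NR lungs in limma: Ngp by 2.68, Camp by 2.73, Lcn2 by 0.50, Olfm4 by 1.84 and Pglyrp1 by 1.12 on the log2 scale. The 4T1 and 67NR changes share the normal arrays, and the difference itself does not use them except for the estimate of the spread. This is the same test as in the 4T1 against 67NR comparison above, not a further one. The calls of Camp and Lcn2 ended in 12 and 10 of 14 fits with 1 array left out, and neither gene was called against normal lung.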

How the results depend on the processing

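Of 30 gene results, 10 genes in 3 comparisons, 13 changed direction or call under at least 1 alternative, and 0 of the 8 called ones changed sign. In 4T1 against normal lung 72 probe sets passed, 35 in a fit of only these groups, 45 with the brightest probe set per gene above the level filter, and 49 to 95 with 1 array left out. In 67NR against normal lung 1 passed, and 0 with an offset of 64, the level filter, the filtered brightest probe set, only these groups or the replicate block, 5 without 67NR replicates 1 and 3 (left out after seeing the data), and 0 to 3 with 1 array left out. In 4T1 against 67NR lung 77 passed, 32 in a fit of only these groups, 32 with the replicate block, and 43 to 75 with 1 array left out. Same-numbered arrays did not deviate together (0 of 13 pairs correlated over 0.1). These values gave no sign that the replicate numbers pair samples, but low correlations cannot exclude it. Under the block the counts were 54, 0 and 32, and the 4T1 against 67NR calls of Camp (2.76, adjusted p = 0.158) and Lcn2 (0.51, adjusted p = 0.0932) were lost.

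Changes of sign occurred for values near 0. With 1 array left out, Ctsg ranged from -0.067 to 0.019 in 4T1 against normal and from -0.0067 to 0.079 in 4T1 against 67NR lung, and in 67NR against normal lung Prtn3 ranged from -0.25 to 0.26, Ltf from -0.14 to 0.23 and Pglyrp1 from -0.14 to 0.016. Without 67NR replicates 1 and 3, Ctsg was 0.0012 in 67NR against normal and -0.032 in 4T1 against 67NR lung, and Ltf was -0.35 in 67NR against normal lung. The cause was not tested. The 5 genes outside the upper 60% of level had no value under that filter. Signal over background limits Elane and Ctsg, and Camp and Prtn3 outside 4T1 lungs.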
